A study of Mus musculus with 8 samples.

Results

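Lysosomal hydrolases, lysosomal membrane proteins and the transcription factor Tfeb were followed in the retinal transcriptome of PD-L1 knockout mice. The group holds 38 genes, chosen by symbol as cathepsins, other lysosomal hydrolases, membrane proteins and Tfeb, out of 25477 genes in the count table. All 38 were found, and all 38 were among the 16861 genes that passed the filter on low counts. Polyadenylated RNA of 8 mouse retina samples had been sequenced, 4 with the genotype PD-L1 knockout and 4 given as control (wild type, WT, in the titles). All 8 carry CNV, choroidal neovascularization, in their names, so an untreated retina is in neither group. The strain, age and sex of the mice, the time after induction, the part of the gene that was deleted and the cells in which it was deleted go unstated in the sources used here. No label ties a sample to an animal, and p-values therefore reflect variation among these 8 samples, some of which may be technical.

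Lysosomes are acidic organelles in which hydrolases break down proteins, glycans and lipids taken up from outside the cell or delivered by autophagy. The hydrolases work in the lumen, a V-type proton pump keeps the lumen acidic, and heavily glycosylated membrane proteins such as LAMP1 and LAMP2 line the limiting membrane. TFEB, a transcription factor held in the cytoplasm when the kinase complex mTORC1 is active, binds E-box elements known as CLEAR elements near the starts of many lysosomal genes. In the retina, the pigment epithelium digests shed photoreceptor outer segments in its lysosomes, and microglia and macrophages are rich in cathepsins. Inherited loss of several of these enzymes causes lysosomal storage disease, with retinal degeneration among its features in some forms of neuronal ceroid lipofuscinosis.

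The targeted gene was low in each library labelled knockout: Cd274, which encodes PD-L1, was at 0.335 ± 0.0758 CPM in knockout libraries and at 4.48 ± 0.544 CPM in control libraries (SD over n = 4; -3.73 on the log2 scale, SE 0.27; edgeR adjusted p = 1.57e-05). CPM are counts scaled to the adjusted library size. Library totals were 34065854 to 36438248 counts in the knockout and 31743404 to 34054268 in the control, so that 1 count was worth 0.028 to 0.0314 CPM. The 10 rod genes summed to 43119 to 61393 CPM in knockout libraries and 44151 to 55711 CPM in control libraries, so the defining transcripts of the labelled tissue were abundant. Knockout 3, control 2 and control 3 stood apart by lens transcript: the 17 lens genes summed to 2774, 6613 and 1892 CPM there, against 4.18 to 49.5 CPM in the other 5 libraries. On the first principal component (31.6% of the variance) the knockouts lay between -28.1 and -20.3 and controls 1 to 3 between 17.7 and 45.1, with control 4 between the groups at -6.95.

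The stretches of DNA just before the starts of 6 lysosomal genes are printed to show the E-box core that TFEB and its relatives are known to bind. Ctsd is a gene that rose and holds the core, Ctsz and Grn rose and hold none in this window, and Lamp1, Mcoln1 and Gla hold 2 or more cores in the bases shown and did not pass the test. Each run is 100 bases, 5′ to 3′ on the strand of the gene, from RefSeq on GRCm38.p6, and capitals mark the core CACGTG. The positions are chr7:142387878-142387977 (minus strand) for Ctsd, chr2:174439040-174439139 (minus) for Ctsz, chr11:102430407-102430506 (plus) for Grn, chr8:13159061-13159160 (plus) for Lamp1, chr8:3500419-3500518 (plus) for Mcoln1 and chrX:134601156-134601255 (minus) for Gla.
Ctsd: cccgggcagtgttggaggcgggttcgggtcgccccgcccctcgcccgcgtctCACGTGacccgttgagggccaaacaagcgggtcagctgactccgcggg
Ctsz: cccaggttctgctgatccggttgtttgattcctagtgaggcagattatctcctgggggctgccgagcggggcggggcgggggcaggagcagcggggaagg
Grn: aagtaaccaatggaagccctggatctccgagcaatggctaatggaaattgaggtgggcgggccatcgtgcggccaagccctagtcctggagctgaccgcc
Lamp1: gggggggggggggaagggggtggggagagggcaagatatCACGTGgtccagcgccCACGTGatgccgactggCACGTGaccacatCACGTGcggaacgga
Mcoln1: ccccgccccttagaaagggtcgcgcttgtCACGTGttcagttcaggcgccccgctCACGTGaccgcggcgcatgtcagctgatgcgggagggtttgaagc
Gla: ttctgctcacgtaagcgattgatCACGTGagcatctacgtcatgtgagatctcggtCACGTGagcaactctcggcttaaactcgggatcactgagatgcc

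Both the core and its longer form TCACGTGA, the core of the CLEAR element, read the same on either strand, and every copy of the longer form contains the shorter. A window of 250 bases before to 50 bases after the start was at hand for 33 of the 38 genes, with Ctsb, Ctsh, Galns, Asah1 and Npc1 unmatched. The 8-base form was found in 5 of the 33 (15.2%; Ctsa, Ctsd, Gla, Cln3 and Mcoln1), against 277 of 19077 genes of the table with a window (1.45%). The 6-base core was found in 13 of the 33 (39.4%), against 1828 of 19077 (9.58%). Lamp1, whose product is a major protein of the lysosomal membrane, held 4 cores within 61 bases of its start, at -61, -45, -28 and -15, none of them in the 8-base form. Mcoln1, which encodes the lysosomal calcium channel TRPML1, held cores at -71 and -45, and Gla, the alpha-galactosidase lost in Fabry disease, held cores at -227 and -194. Ctsd was the single holder of a core among the 5 genes that rose, with cores at -245 and -98. In counts, 1 of the 13 genes with a core and 4 of the 20 with a window and no core were higher in the knockout, which describes these windows and says nothing of the factor.

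**Figure D1:**
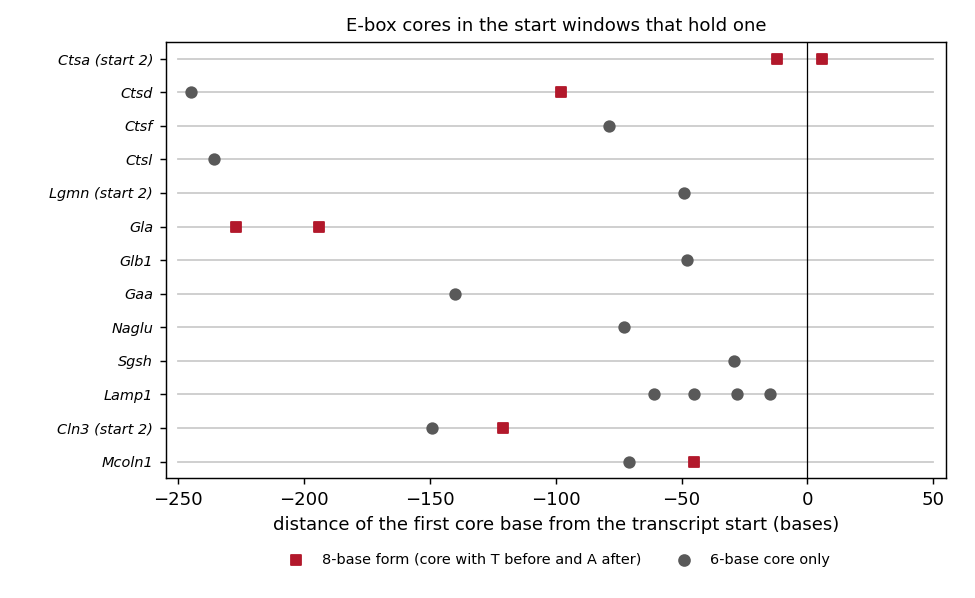
Positions of the 6-base core (grey) and of its 8-base form (red) in the start windows of the 13 lysosomal genes that hold one, with the x axis in bases from the transcript start and 1 row per window. Gla and Ctsa hold 2 copies of the 8-base form each, and Lamp1 holds 4 cores, all without it.

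PD-L1 knockout retinas held more transcript of several lysosomal hydrolases, and the rise was small. Of the 38 genes, 5 were higher in the knockout and 0 were lower (edgeR quasi-likelihood test, Benjamini-Hochberg adjusted p under 0.05), and 33 did not pass. At an unadjusted p under 0.05, 22 were higher and 0 lower, and DESeq2 called 13 higher and 0 lower, against 3.82% of all genes with a DESeq2 adjusted p that were higher. The 8 that DESeq2 called and edgeR did not were Ctsa, Ctsb, Lgmn, Glb1, Man2b1, Gaa, Galns and Psap. The 5 called by edgeR were the cathepsin genes Ctsd, Ctsz and Ctsc, the progranulin gene Grn and the fucosidase gene Fuca2, with folds of 1.31 to 1.68. They make up 13.2% of the group, against 1.2% of all genes tested that were higher and 1.35% that were lower. Among genes at a mean of 5 CPM or more, which take in 37 of the 38, the background was 1.44% higher.

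The direction was shared more widely than the calls. The log2 fold change was positive for 34 of the 38 genes (89.5%), against 49.8% of all genes tested, with a median of 0.31 against -0.0011. It ranged from -0.37 for Ctsk to 0.75 for Grn. An unadjusted p under 0.05 was reached by 22 of the 38 (57.9%), against 21.3% of all genes. All 4 knockout values lay above all 4 control values for 13 genes (34.2%), against a background of 5.19%, and for 0 genes did they lie below. In bulk tissue, more RNA per cell and more cells of a type that holds these transcripts cannot be told apart.

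**Figure D2:**
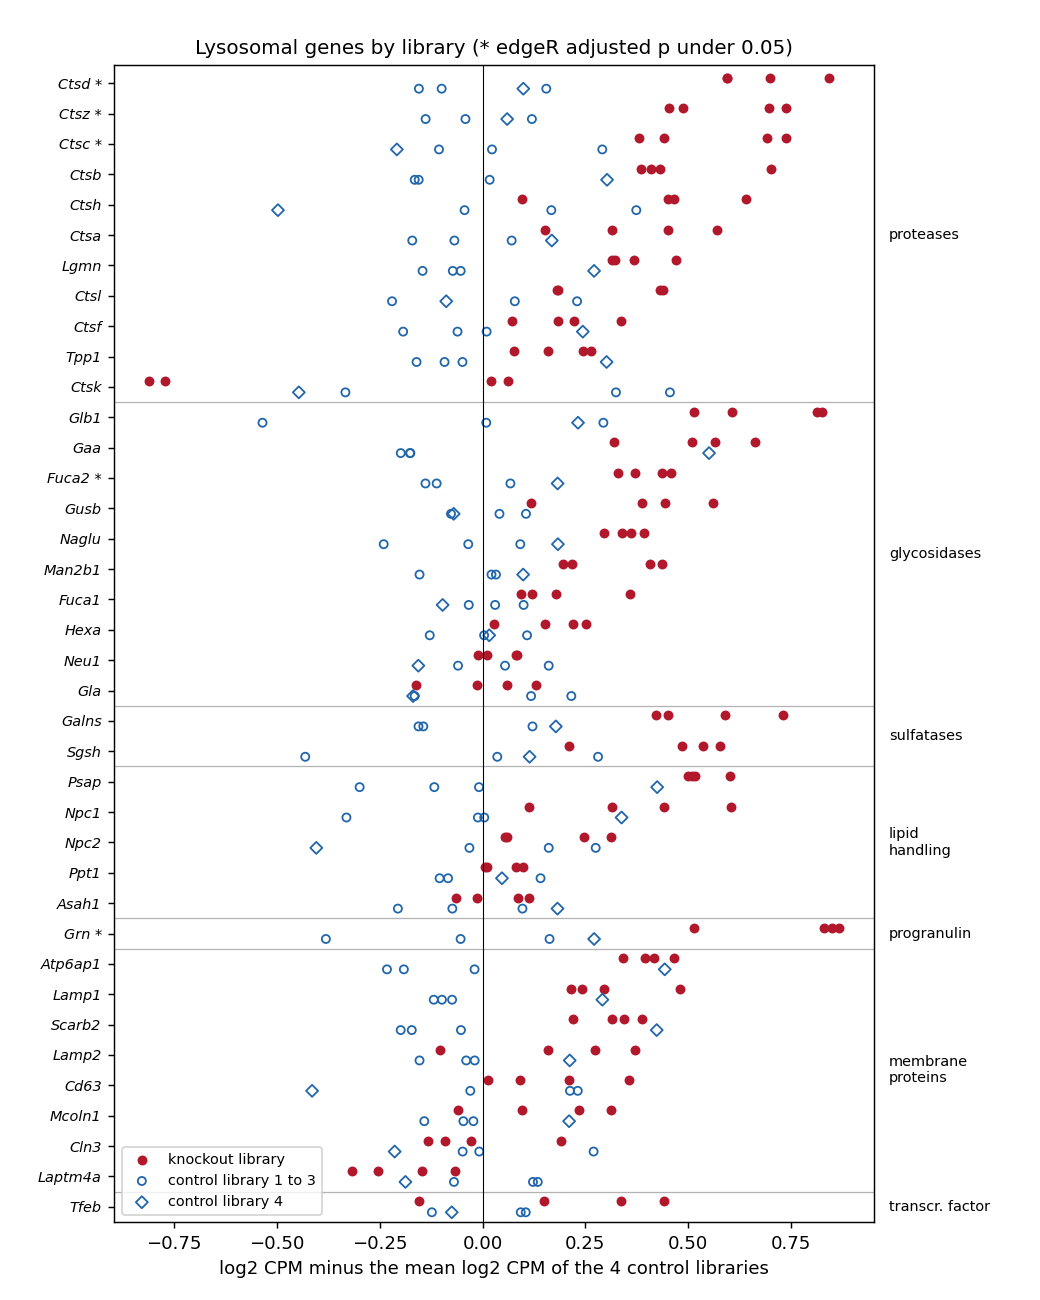
Level of each of the 38 genes in every library, as log2 CPM minus the mean log2 CPM of the 4 controls, grouped by role; filled circles are knockout libraries, open circles control libraries 1 to 3 and open diamonds control 4. Knockout points lie right of the zero line for most genes, and the diamond of control 4 is the rightmost control for 19 of 38. Over all genes tested, control 4 was the highest control for 33.1%.

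By library, the median over the 38 genes of this log2 difference was 0.31, 0.22, 0.40 and 0.32 in knockouts 1 to 4, against 0.05, -0.08, -0.13 and 0.14 in controls 1 to 4. The summed level was 3999, 3919, 4398 and 4066 CPM in the knockouts and 3279, 3074, 2892 and 3688 CPM in the controls. Every knockout sum was above every control sum, with control 4 the nearest to the knockouts and knockout 3 the highest library. By role, the median log2 fold change was 0.37 for the 11 proteases, 0.33 for the 10 glycosidases, 0.49 for the 2 sulfatases, 0.15 for the 5 lipid-handling proteins and 0.17 for the 8 membrane proteins. Calls fell on 3 proteases, 1 glycosidase and progranulin. For the 28 lumenal proteins the median was 0.37, with 5 called and 13 non-overlapping, and for the 9 membrane proteins, Npc1 included, it was 0.18, with 0 called and 0 non-overlapping. That difference between lumenal and membrane proteins was not tested.

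Levels between genes are compared in FPKM, which divides counts by the length of the gene and the total of the library, averaged over the 8 libraries. Psap was the highest at 198 FPKM, and Ctsd followed at 185 FPKM. Lamp1 at 90.3 FPKM, Ctsb at 77.4, Lgmn at 71.9, Ctsf at 62.9, Atp6ap1 at 47.3, Ppt1 at 44.6, Laptm4a at 43.6 and Ctsl at 40.3 FPKM completed the 10 highest. Several neighbours in this order did not differ beyond their spread: Ppt1 was at 45.6 ± 1.81 FPKM in the knockout and 43.6 ± 3.89 in the control, and Laptm4a at 40.9 ± 3.07 in the knockout and 46.3 ± 4.99 in the control (SD, n = 4 each). Tfeb was the lowest at 0.90 FPKM, below Gusb at 1.14 and Ctsk at 1.20 FPKM. This order depends on gene length, which was 7548 bases for Tfeb, 9588 for Gusb, 11154 for Ctsc and 1583 for Ctsk. By CPM, Ctsk was the lowest of the 38 genes, at 1.65 in knockouts and 2.14 in controls. The median over the 38 genes was 16.9 FPKM, against 5.22 FPKM over all genes tested. High and low genes of the group both included genes that rose, from Ctsd down to Ctsc at 2.44 ± 0.271 FPKM in knockouts, against 1.63 ± 0.267 FPKM in controls (SD over n = 4).

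**Figure D3:**
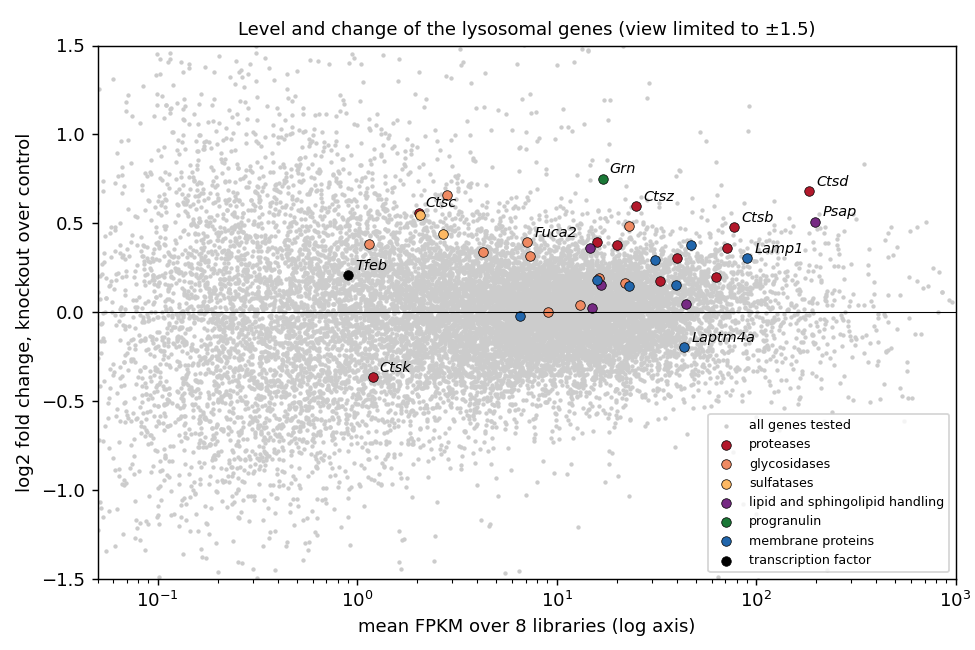
Log2 fold change, knockout over control, against the mean FPKM over 8 libraries on a log axis, with the 38 lysosomal genes coloured by role and all genes tested in grey; the view is limited to changes within ±1.5. Coloured points lie mostly above zero at all levels, with Grn, Ctsd and Glb1 at the top and Ctsk and Laptm4a below zero.

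Among the proteases, the aspartic protease cathepsin D gave the clearest change. Ctsd (Entrez 13033; GRCm38.p6 chromosome 7, 142375910 to 142387827) was at 409, 409, 486 and 440.5 CPM in knockouts 1 to 4, against 302, 253, 244 and 290.5 CPM in controls 1 to 4. The lowest knockout was above the highest control by more than the range of the controls. On the log2 scale the change was 0.68 (SE 0.10; edgeR adjusted p = 0.00481), a fold of 1.60. With any single library left out it stayed called, with adjusted p up to 0.0253. Ctsz (Entrez 64138; chromosome 2, 174427494 to 174439039) encodes cathepsin Z, a carboxypeptidase of the papain family. It was at 40.1, 39.2, 46.4 and 47.8 CPM in the knockouts, against 31.1, 27.8, 26.0 and 29.8 CPM in the controls. Again the groups did not overlap, and knockouts 3 and 4 were the higher pair. The log2 change of 0.60 (SE 0.10, adjusted p = 0.0091) was called without each library in turn, with adjusted p up to 0.0483.

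Ctsc (Entrez 13032; chromosome 7, 88278024 to 88315861) encodes cathepsin C, the dipeptidyl peptidase that activates serine proteases of immune cells. Its levels were 24.7, 23.7, 30.4 and 29.4 CPM in knockouts 1 to 4, against 22.3, 16.9, 18.5 and 15.7 CPM in controls 1 to 4. Knockout 2 and control 1 nearly met, and control 4 was the lowest library. On the log2 scale this was 0.56 (SE 0.13; adjusted p = 0.0442). The call held without control 1 (adjusted p = 0.0348) or control 4 (0.0149). It did not pass without knockout 1 (0.0552), knockout 2 (0.0611), knockout 3 (0.156), knockout 4 (0.109), control 2 (0.123) or control 3 (0.119).

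Cathepsin B and legumain were high in every knockout library without passing the edgeR test. Ctsb, a cysteine protease and the most abundant cathepsin after Ctsd, was at 398, 405, 496 and 411 CPM in the knockouts, against 308, 273, 272 and 376 CPM in the controls. Lgmn, the asparaginyl endopeptidase that processes other cathepsins, was at 156, 162, 174 and 157 CPM in the knockouts, against 119, 121, 114 and 152 CPM in the controls. In both genes control 4 was far above controls 1 to 3 and just below the lowest knockout. The log2 fold changes were 0.48 (SE 0.12, adjusted p = 0.054) for Ctsb and 0.36 (SE 0.10, adjusted p = 0.0679) for Lgmn. From gene start to gene end, introns included, Ctsb overlaps the gene Fdft1 by 774 bases. Shared exons were not checked and the strand setting of the counting is not given, so whether counted reads are shared is not known. The same holds for Ctsa with Pltp (1515 bases), Npc1 with Rmc1 (8982 bases), Asah1 with Frg1 (8464 bases) and Galns with the pseudogene Gm34962 (4347 bases).

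The other proteases overlapped between groups. Ctsf, a cysteine cathepsin encoded on chromosome 19 like Cd274, was at 136, 140, 151 and 126 CPM in the knockouts, against 115, 120.5, 105 and 142 CPM in the controls (log2 fold change 0.20, adjusted p = 0.277). Ctsl, a cysteine cathepsin, was at 145, 146, 173 and 174 CPM in the knockouts, against 135, 150.4, 110.1 and 121 CPM in the controls (log2 change 0.30, adjusted p = 0.139). In Ctsf the overlap came through control 4 and in Ctsl through control 2. Ctsa, the protective protein of neuraminidase and beta-galactosidase, had a log2 fold change of 0.37 (adjusted p = 0.0781), and Ctsh, an aminopeptidase, one of 0.39 (adjusted p = 0.204). Tpp1, a tripeptidyl peptidase lost in a neuronal ceroid lipofuscinosis, had a log2 change of 0.18 (adjusted p = 0.339). Ctsk, the collagen-degrading cathepsin of osteoclasts, was scarce at 1.17 to 2.15 CPM in the knockouts, against 1.51 to 2.82 CPM in the controls, with a log2 change of -0.37 (SE 0.32, adjusted p = 0.522).

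Progranulin had the largest log2 fold change of the 38 genes. Grn (Entrez 14824; chromosome 11, 102430507 to 102436809) encodes a secreted precursor that reaches the lysosome together with prosaposin and is cut there into granulins. It was at 47.6, 38.3, 48.9 and 48.3 CPM in knockouts 1 to 4, against 30.01, 25.8, 20.6 and 32.3 CPM in controls 1 to 4. The groups did not overlap, with knockout 2 low among the knockouts and control 3 low among the controls. The mean was 45.8 ± 5.02 CPM in knockouts and 27.2 ± 5.17 CPM in controls (SD over n = 4), or 0.75 on the log2 scale (SE 0.14; adjusted p = 0.0135). The call was lost without knockout 3, at an adjusted p of 0.0621.

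**Figure D4:**
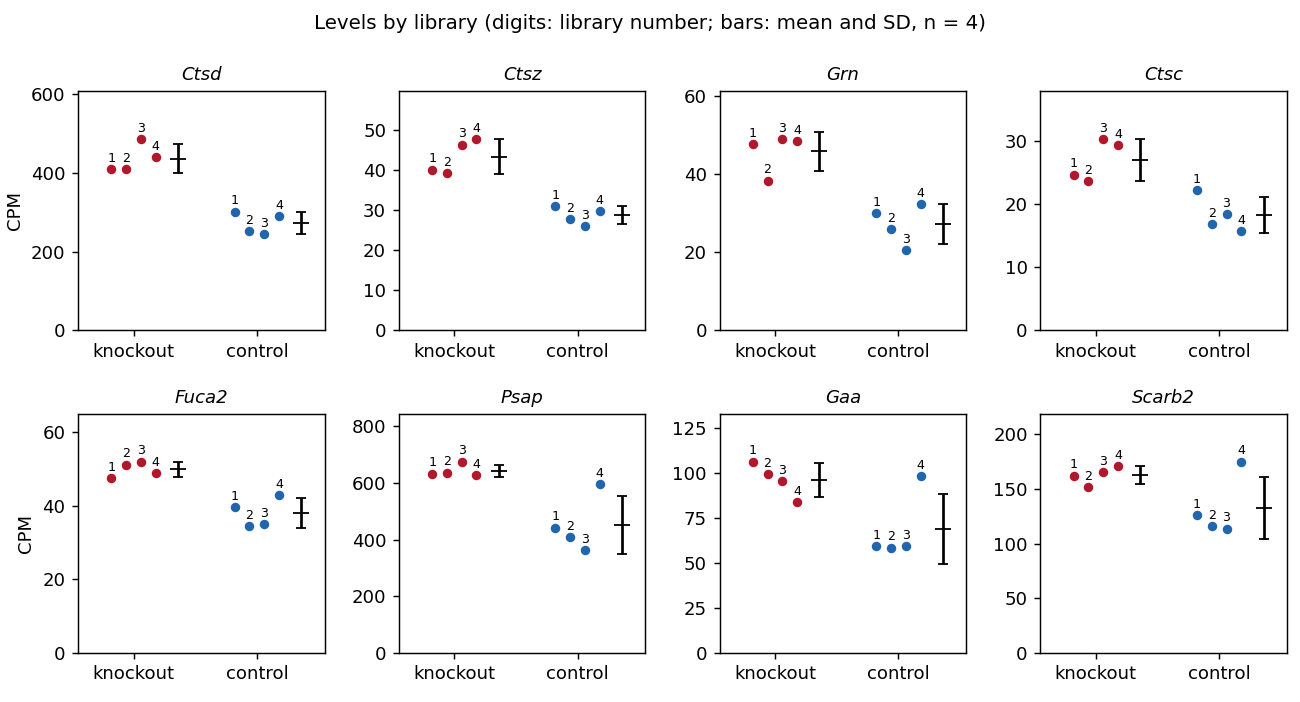
CPM in each library (digits give the library number) for the 5 genes that rose and for Psap, Gaa and Scarb2, with knockout left of control and bars for the mean and SD of 4 libraries. The knockout and control points of Ctsd, Ctsz, Grn, Ctsc and Fuca2 do not overlap, whereas control 4 reaches 98.2 CPM for Gaa and 175 CPM for Scarb2, within or above the knockout range.

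Of the glycosidases, which remove sugars from glycoproteins and glycolipids, 1 of 10 passed. Fuca2 (Entrez 66848; chromosome 10, 13500570 to 13519035), an alpha-fucosidase, was at 47.5, 51.2, 51.9 and 48.9 CPM in the knockouts, against 39.6, 34.3, 34.996 and 42.9 CPM in the controls. The knockouts were tightly grouped, at 49.9 ± 2.04 CPM against 37.97 ± 4.05 CPM in controls (SD over n = 4). The change was 0.39 on the log2 scale (SE 0.09; adjusted p = 0.0444). The call held without control 4 (adjusted p = 0.00324) and was lost without knockout 1 (0.058), knockout 2 (0.12), knockout 3 (0.155), knockout 4 (0.0876), control 1 (0.0982), control 2 (0.109) or control 3 (0.14).

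A further 4 glycosidase genes had no overlap between groups and did not pass the edgeR test, and DESeq2 called Glb1 and Man2b1 among them. Glb1, the beta-galactosidase that acts on GM1 ganglioside, was at 7.75, 7.27, 9.02 and 8.95 CPM in the knockouts, against 6.24, 5.12, 3.51 and 5.98 CPM in the controls (log2 change 0.66, SE 0.19, adjusted p = 0.0789). From gene start to gene end, introns included, Tmppe overlaps Glb1 by 10107 bases, and whether the 2 genes share exons was not checked. Gusb, the beta-glucuronidase, was at 12.9, 10.3, 12.4 and 13.98 CPM in the knockouts, against 9.75, 8.99, 10.2 and 9.03 CPM in the controls (log2 change 0.38, adjusted p = 0.123). Knockout 2 and control 3 lay side by side there. Man2b1, an alpha-mannosidase, was at 43.3, 37.2, 42.5 and 36.7 CPM in the knockouts, against 32.8, 32.5, 28.8 and 34.3 CPM in the controls (log2 change 0.32, adjusted p = 0.09). Naglu, which acts on heparan sulfate, was at 11.7, 12.3, 12.5 and 12.1 CPM in the knockouts, against 9.31, 8.07, 10.2 and 10.8 CPM in the controls (log2 change 0.34, adjusted p = 0.156). In both of these genes the highest control was control 4.

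The acid alpha-glucosidase gene Gaa, lost in Pompe disease, was at 106, 99.2, 95.5 and 83.7 CPM in the knockouts, against 59.3, 58.4, 59.4 and 98.2 CPM in the controls. Controls 1 to 3 were almost equal and lay below every knockout, while control 4 lay above knockouts 3 and 4. Over all 8 libraries the log2 change was 0.48 (SE 0.16; adjusted p = 0.11). Hexa, the alpha subunit of beta-hexosaminidase, had a log2 change of 0.16 and Fuca1, the other fucosidase, 0.19 (adjusted p = 0.296 and 0.242). The sialidase Neu1 had a log2 fold change of 0.04 and Gla one of -0.0022 (adjusted p = 0.837 and 0.994). The sulfatases, which strip sulfate from glycosaminoglycans, both had positive values: Galns was at 8.93, 8.11, 9.86 and 7.95 CPM in the knockouts, against 6.46, 5.37, 5.33 and 6.72 CPM in the controls (log2 change 0.55, SE 0.15, adjusted p = 0.0691). Its groups did not overlap. Sgsh had a log2 change of 0.44 (adjusted p = 0.141).

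Among the lipid-handling proteins, prosaposin, the precursor of the saposins that present sphingolipids to their hydrolases, had the largest value. Psap was at 633, 636, 675 and 628 CPM in the knockouts, against 442, 409.8, 361 and 597 CPM in the controls. No control reached the lowest knockout, and control 4 lay much nearer to the knockouts than to the other controls. That made a log2 value of 0.51 (SE 0.13; adjusted p = 0.0619). Npc1, the membrane protein that exports cholesterol from the lysosome, had a log2 change of 0.36 (adjusted p = 0.159), and its lumenal partner Npc2 0.15 (adjusted p = 0.523). Ppt1, a thioesterase that removes palmitate from proteins, was at 110.0, 115, 109.5 and 117 CPM in the knockouts, against 120.3, 103, 101 and 113 CPM in the controls. Its groups overlapped almost wholly (log2 change 0.05, SE 0.08, adjusted p = 0.768). The acid ceramidase gene Asah1 had a log2 change of 0.02 (adjusted p = 0.911).

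None of the 8 membrane proteins passed, with edgeR or with DESeq2, and none separated the groups, although 3 had an unadjusted p under 0.05. Lamp1 was at 212, 208, 249.9 and 220.0 CPM in the knockouts, against 165, 167, 170.3 and 219 CPM in the controls (log2 change 0.30, SE 0.11, adjusted p = 0.138). Atp6ap1, an accessory subunit of the proton pump, was at 204, 201, 211 and 194 CPM in the knockouts, against 151, 134, 129.97 and 208 CPM in the controls (log2 change 0.38, SE 0.13, adjusted p = 0.128). Scarb2, the receptor that carries glucocerebrosidase to the lysosome, was at 162, 152, 165 and 171 CPM in the knockouts, against 126, 116, 114 and 175 CPM in the controls (log2 change 0.30, SE 0.13, adjusted p = 0.203). In all 3 genes controls 1 to 3 lay below every knockout and control 4 lay among the knockouts or above them. Laptm4a, a membrane-spanning protein of late endosomes and lysosomes, had a negative value, at 177, 169, 190.5 and 202 CPM in the knockouts, against 229.8, 232, 201 and 185 CPM in the controls (log2 change -0.20, SE 0.10, adjusted p = 0.256). Its groups overlapped through controls 3 and 4, and control 4 was again on the knockout side. Lamp2 had a log2 change of 0.18, the tetraspanin gene Cd63 0.15, Mcoln1 0.15 and Cln3, lost in a juvenile neuronal ceroid lipofuscinosis, -0.02, with adjusted p of 0.363 to 0.941. Tfeb itself was at 5.65, 6.98, 7.95 and 8.55 CPM in the knockouts, against 6.77, 5.78, 6.72 and 5.98 CPM in the controls (log2 change 0.21, SE 0.16, adjusted p = 0.482), with knockout 1 the lowest of all 8 libraries.

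Control 4 lay at an extreme of the controls for many genes of the whole table, these genes included. It was the highest control for 19 of the 38 genes (50%), against 33.1% of all genes, and the lowest for 10 (26.3%), against 33.8%. Its level over the mean of controls 1 to 3 was a log2 value of 0.73 for Gaa, 0.59 for Atp6ap1, 0.56 for Psap and 0.56 for Scarb2, and -0.67 for Ctsh, -0.63 for Ctsk, -0.56 for Cd63 and -0.54 for Npc2. The coefficient of variation was 3.34% in the knockout and 22.5% in the control for Psap, and 3.56% in the knockout and 23.1% in the control for Atp6ap1. All 4 knockouts lay above controls 1 to 3 for 21 of the 38 genes, against 16% of all genes tested.

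Without control 4, 20 of the 38 genes were higher in the knockout (52.6%), against 10.5% of all genes tested, and 0 were lower (edgeR). All 5 genes named above as higher were among the 20, and in 16 of the 20 control 4 was the highest control. The added genes were the proteases Ctsa, Ctsb, Ctsf, Lgmn and Tpp1, the glycosidases Glb1, Man2b1, Gaa and Naglu, the sulfatase Galns, the lipid-handling Npc1 and Psap, and the membrane proteins Lamp1, Scarb2 and Atp6ap1. Gaa reached 0.70 on the log2 scale (SE 0.09; edgeR adjusted p = 0.000336), Psap 0.67 (SE 0.09, adjusted p = 0.00055) and Atp6ap1 0.55 (SE 0.08, adjusted p = 0.000958). No label sets control 4 apart, and the comparison with it is the one the design gives.

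Leaving out any other library lowered the count: it was 3 without knockout 1, 2 or 4, 2 without knockout 3, 4 without control 1, and 3 without control 2 or control 3. The share of all genes tested that were called higher fell as well, from 1.2% to between 0.361% and 0.812%. Knockout 3 was the highest knockout for 19 of the 38 genes, against 24.0% of all genes, and control 3 the lowest control for 18, against 23.7%. Both are among the libraries with much lens transcript, whose part in the result was not tested. With knockout 3, control 2 and control 3 all left out, 0 of the 38 genes passed (edgeR; 6 at an unadjusted p under 0.05), with 3 knockouts against 2 controls and 7 genes higher in the whole table. The log2 fold changes were then 0.51 for Ctsd, 0.48 for Ctsz, 0.53 for Grn, 0.46 for Ctsc and 0.26 for Fuca2, with adjusted p of 0.239 to 0.656, and the median over the 38 genes was 0.20.

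**Figure D5:**
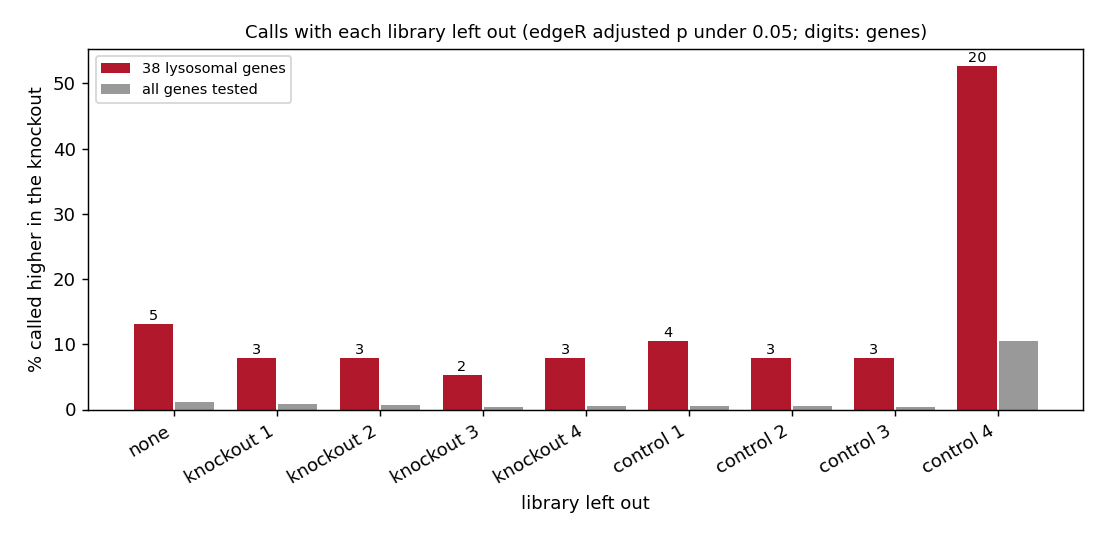
Share of genes called higher in the knockout with each library left out in turn, for the 38 lysosomal genes (red, with the number called) and for all genes tested (grey), in percent. The count is 2 to 4 without any of the other 7 libraries and 20 without control 4, when the share of all genes is 10.5%.

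In the wider lysosomal pathway calls were fewer, while most values were positive. A total of 146 further genes, listed by role, gave 138 tested genes, of which 4 were higher (2.90%) and 1 was lower, with a median log2 fold change of 0.13 and 97 positive values (70.3%, against 49.8% of all genes). Acp2 stands on 2 of the lists and was counted once in these totals. Among 34 other hydrolases and activators, 2 were higher (11 higher and 2 lower at an unadjusted p under 0.05, and 5 higher and 0 lower with DESeq2). Man2b2, an alpha-mannosidase, was at 26.3, 22.7, 26.5 and 20.3 CPM in the knockouts, against 17.5, 13.6, 13.7 and 18.6 CPM in the controls (log2 change 0.59, SE 0.14, adjusted p = 0.0424). Its groups did not overlap. The Man2b2 call held without knockout 4 (adjusted p = 0.0486) or control 4 (0.0035), and with another library left out the adjusted p ran to 0.154.

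Among 30 other lysosomal membrane proteins, 2 were higher. At an unadjusted p under 0.05 by edgeR, 6 were higher and 3 lower, and DESeq2 called 3 higher and 1 lower. All 4 knockouts lay above all 4 controls for 2 of the 30 and below them for 2. Laptm5, a lysosomal protein of blood and immune cells, was at 11.2, 10.6, 12.6 and 12.2 CPM in the knockouts, against 7.05, 5.22, 5.55 and 4.26 CPM in the controls. It had the largest change of the called lysosomal genes, 1.08 on the log2 scale (SE 0.16; adjusted p = 0.00592), and was called without each library in turn, with adjusted p up to 0.0311. Glmp, a glycosylated lysosomal membrane protein, was at 34.01, 31.4, 32.4 and 28.7 CPM in the knockouts, against 24.8, 24.98, 23.0 and 23.9 CPM in the controls (log2 change 0.39, SE 0.09, adjusted p = 0.0444). The Glmp call held without control 4 (0.0129), with adjusted p of 0.0562 to 0.153 without each of the other libraries.

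The 19 tested V-ATPase genes had a median log2 change of 0.18 with 15 positive values and 0 calls by edgeR (7 at an unadjusted p under 0.05, and 1 call by DESeq2), led by Atp6v0c (log2 change 0.37, adjusted p = 0.0574) and Atp6v1h (log2 change 0.25, adjusted p = 0.112). The 14 genes that deliver hydrolases to the lysosome had a median log2 change of 0.03 and 0 calls by edgeR or DESeq2 (1 at an unadjusted p under 0.05 by edgeR), and the smallest p were those of Cln6 (log2 change 0.26, adjusted p = 0.128) and Nagpa (log2 change 0.33, adjusted p = 0.241). The 20 autophagy genes had a median log2 change of 0.17 and 0 calls by either tool (4 at an unadjusted p under 0.05 by edgeR), with Wipi1 at a log2 change of 0.24 (adjusted p = 0.141) and Map1lc3a at 0.26 (adjusted p = 0.159). Of the cystatins, inhibitors of the cysteine cathepsins, 3 were tested and 0 called by either tool or at an unadjusted p under 0.05, with Cst3 at a log2 change of 0.13 and Cstb at 0.17. Among 19 relatives of Tfeb and genes of mTORC1 control, 1 was lower. Fnip1, a partner of folliculin in nutrient sensing at the lysosome, was at 100.4, 98.7, 105 and 111 CPM in the knockouts, against 134, 139.8, 142 and 134 CPM in the controls. Every knockout lay below every control (log2 change -0.41, SE 0.07, adjusted p = 0.0147). The Fnip1 call was lost without knockout 2 (0.0575), knockout 3 (0.0627), control 2 (0.0635) or control 3 (0.0539).

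Some markers of other cell types differed between the genotypes. Of 18 genes of microglia and macrophages, all detected in every library, 8 were higher in the knockout, among them Csf1r (log2 change 1.03, adjusted p = 0.00478) and C1qa (log2 change 1.20, adjusted p = 0.00349). At an unadjusted p under 0.05 by edgeR, 14 of the 18 were higher, and DESeq2 called 10 higher. P2ry12 (log2 change 0.03), Siglech (0.13), Tyrobp (0.34) and Aif1 (0.51) did not reach that unadjusted p. The summed level of the 18 genes was 207 to 262 CPM in knockouts and 115 to 177 CPM in controls. Of these genes 3 also stand on the lysosomal lists, and without them the sums were 142 to 184 CPM in knockouts and 71.4 to 117 CPM in controls. Control 4 had the lowest microglial sum of all libraries, 115 CPM. Control 4 was the highest control for 19 of the 38 lysosomal genes, against 33.1% of all genes tested. It was the lowest control for 10 of them, against 33.8% of all genes tested. The part of these cells in the rise of the lysosomal genes was not tested.

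Of 12 pigment epithelium genes, 0 passed with edgeR, and DESeq2 called 1 higher. At an unadjusted p under 0.05 by edgeR, 4 were higher and 0 lower. These were Rpe65 (log2 change 0.98), Ttr (0.96), Lrat (0.89) and Rdh5 (0.61), each with overlapping groups. Dct, Tyrp1, Slc45a2, Pmel and Mlana had negative log2 changes, from -0.31 to -0.86, and did not reach that p. The sums of the 12 genes were 117 to 251 CPM in knockouts and 79.4 to 246 CPM in controls. Of 12 Müller glia genes 2 were higher with edgeR (Crym and Vim), 6 at an unadjusted p under 0.05 and 5 with DESeq2. Their sums were 4633 to 6267 CPM in knockouts and 4268 to 5320 CPM in controls. Of 9 endothelial genes 1 was higher with edgeR, 5 at an unadjusted p under 0.05 and 3 with DESeq2. The endothelial sums were 199.5 to 223 CPM in knockouts and 150.2 to 205 CPM in controls. Red blood cell genes summed to 1.68 to 4.03 CPM in knockouts and 10.1 to 14.5 CPM in controls, and all 4 tested were lower. Of 7 cone genes 1 was lower (Arr3), with sums of 1074 to 1294 CPM in knockouts and 1256 to 1452 CPM in controls, and of 8 ganglion cell genes 1 was lower (Nefl), with sums of 735 to 835 CPM in knockouts and 741 to 1069 CPM in controls. None of the 7 bipolar cell genes passed with edgeR (1 higher at an unadjusted p under 0.05, and 1 higher with DESeq2). They summed to 1308 to 1487 CPM in knockouts and 1208 to 1445 CPM in controls. The part of these lists in the result was not tested. Lymphocyte genes were near 0, at 0.532 to 0.792 CPM in knockouts and 0.502 to 0.681 CPM in controls, with 0 of 8 tested. Neutrophil genes summed to 0.481 to 2.52 CPM in knockouts and 0.296 to 0.878 CPM in controls.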

How the data were processed

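Polyadenylated RNA of 8 retina samples was measured by RNA-seq. Per the submitters' processing notes, fastp, HISAT2 and HTSeq were used with build mm10. Not given in the sources used here: versions, annotation and strand setting. The deposited table of read counts per gene holds whole numbers that the authors left unnormalized. The authors' deposited FPKM values are these counts scaled by gene length and library total. Columns were matched to samples by title.

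The analysis ran in edgeR 4.0.16 (R 4.3.3): TMM scaling, filterByExpr (minimum count 10, minimum total 15), a quasi-likelihood test of knockout over control with no covariate, and Benjamini-Hochberg adjustment over the 16861 tested genes at a threshold of 0.05. The script was tested on simulated data. Each SE was derived from the log2 fold change and its F statistic and restates the test. FPKM was used to compare levels between genes. Start windows and positions are those of RefSeq on GRCm38.p6, and a gene with several starts counts as holding a motif if any window does. With at least 31743404 counts per library, levels under 1 CPM rest on few reads.

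The members and gene lists were chosen with earlier results of these data known. Values by library are given for members past the threshold, with groups that do not overlap or among the 10 highest by FPKM, and for Gaa, Scarb2 and Tfeb. From each further list, up to 4 genes past the threshold, or the 2 with the smallest p, are named. Some genes that this takes are not reported here. Alternatives were RLE, upper quartile and no scaling, other filters, robust dispersions, DESeq2 1.42.0, limma-voom and limma-trend (limma 3.58.1), leaving out each library, blocking by title number and the 3 libraries with much lens transcript left out together.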

Additional observations from a re-analysis of the deposited data

Results flagged for a closer look

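Each group of 4 libraries was searched for a library that lay far from the other 3, over 102 groups of named genes, of which 4 were marked. Chance marks about 1 in 20 such groups. Ctsb was at 496 CPM in knockout 3, against 398 to 411 CPM in the other knockouts. Grn was at 38.3 CPM in knockout 2, against 47.6 to 48.9 CPM in the other knockouts. Gaa was at 98.2 CPM in control 4, against 58.4 to 59.4 CPM in the other controls. Lamp1 was at 219 CPM in control 4, against 165 to 170.3 CPM in the other controls.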

How the results depend on the processing

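Of the 38 lysosomal genes 5 were higher, and the count was 13 with DESeq2, 3 with limma-trend on log2(FPKM + 1), 3 with limma-trend on log2(FPKM + 0.1), 3 with the title number as a replicate block, and 0 with knockout 3, control 2 and control 3 left out. It ran from 2 to 20 with 1 library left out. Other scalings, filters, robust dispersions and limma-voom gave 5 to 7. The count of genes that were lower was 0 throughout. Of all genes tested, 1.2% were called higher in the main fit, 0.89% and 1.11% with limma-trend and 0.718% with the block. That share was 0.0403% without the 3 lens-rich libraries and 0.361% to 10.5% with 1 library left out. Of the further lysosomal genes 5 were called, 4 higher and 1 lower. With both directions pooled, the count was 8 with no filter on low counts, 11 with DESeq2, 3 with limma-trend on log2(FPKM + 1) and 2 with the replicate block. It was 0 without the 3 lens-rich libraries, and 1 to 37 with 1 library left out. Without control 4, 1806 of the 17146 genes tested in the whole table were higher and 1403 lower. The median log2 fold change of the 38 lysosomal genes, 0.31 in the main fit, was 0.20 without the 3 lens-rich libraries and 0.26 to 0.36 with 1 library left out. The cause of these shifts in counts and in the median was not tested. The share of genes with the motif in a start window was 15.2% for the 8-base form and 39.4% for the 6-base core. Over all genes of the table with a window, the shares were 1.45% and 9.58%. Every 8-base copy contains the core, so the share for the core could not be the lower one.

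Changes of sign occurred in genes close to zero that were not called. The log2 change of Gla was 0.016 by library size, 0.00036 without a filter, 0.0052 with limma-voom, 0.021 and 0.024 with limma-trend, 0.0038 with the block and -0.062 to 0.074 with 1 library left out. Cln3 was at 0.0026 by library size, 0.0037 and 0.0045 with limma-trend, 0.13 without the 3 lens-rich libraries and -0.10 to 0.084 with 1 left out. Asah1 was at -0.13 and Ppt1 at -0.023 without those 3. With 1 left out, Asah1 ran from -0.047 to 0.088 and Neu1 from -0.011 (without control 4) to 0.10.

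No label says whether the title numbers pair the libraries. The correlations of same-numbered deviations from the group means were 0.21, -0.04, 0.12 and 0.01. Over all pairs of a knockout and a control they ran from -0.29 to 0.24. Values this small do not settle whether the libraries were paired. With the block, adjusted p was 0.0687 for Ctsc, 0.0764 for Fuca2, 0.0687 for Man2b2 and 0.0748 for Glmp, and the fit gave 121 genes higher and 107 lower in the whole table, in place of 203 and 227. DESeq2 gave 596 and 724, library size alone 207 and 131, and the 5 libraries with little lens transcript 7 and 8. Ctsk, Glb1, Galns and Tfeb averaged under 10 CPM in both groups, and fewer reads stand behind their values.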
